A study of Mus musculus with 28 samples.

Results

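The *Pax* genes encode transcription factors that share a paired DNA-binding domain. All 9 members, *Pax1* to *Pax9*, were taken by name from the GENCODE annotation of the mm9 mouse genome, which holds 22225 protein-coding genes. The data are ChIP-seq region lists from mouse embryonic stem cell (ESC)-derived mesodermal cultures at day 4, and the question asked of each gene is where Brg1, the Polycomb protein Suz12 and the histone marks H3K27me3 and H3K27ac were found, and what changed once *Brg1* was deleted. ESCs were grown as embryoid bodies, taken apart, and reaggregated for 40 h with VEGF, Activin A and BMP4. All samples carry the label Brg1f/f; Actin-CreER, that is, floxed *Brg1* alleles and a tamoxifen-activated Cre recombinase under a broadly active promoter. Control cultures received the solvent tetrahydrofuran (THF) from day 2 and kept normal Brg1 levels. *Brg1*-deleted cultures received 200 nM 4-hydroxytamoxifen (4-OHT) in THF instead. The Brg1-FLAG libraries are labelled with the same line and normal Brg1, whereas the methods of the study describe ESCs with a FLAG-tagged *Brg1* allele. Of 28 samples, 17 have a list (3 Brg1-FLAG, 3 control and 3 4-OHT for H3K27me3, 2 and 2 for Suz12, 2 and 2 for H3K27ac) and 11 are inputs.

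Pax factors direct the making of organs and cell lineages. *Pax1* and *Pax9* act in sclerotome and pharyngeal pouches, *Pax3* and *Pax7* in dorsal neural tube, neural crest and muscle progenitors, *Pax2*, *Pax5* and *Pax8* in midbrain, kidney, ear, thyroid and B cells, and *Pax4* and *Pax6* in endocrine pancreas and, for *Pax6*, eye and forebrain. H3K27me3 is deposited by Polycomb repressive complex 2 (PRC2), of which Suz12 is a core subunit, and marks silent developmental genes, whereas H3K27ac marks active promoters and enhancers. Brg1 is the ATPase of the BAF chromatin-remodelling complexes.

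Stretches of sequence are shown for the promoters at the extremes of the family and for an intronic site of Brg1-FLAG in *Pax3* and in *Pax7* (mm9 reference). The promoter stretches are the 300 bp upstream of the TSS on the minus strand, the strand of both genes, with CpG dinucleotides in capitals. The *Pax3* promoter, the family's most fully Polycomb-covered, holds 12 CpGs at chr1:78193710-78194009, and that of *Pax4*, the least covered, holds 2 at chr6:28399354-28399653.
Pax3 promoter: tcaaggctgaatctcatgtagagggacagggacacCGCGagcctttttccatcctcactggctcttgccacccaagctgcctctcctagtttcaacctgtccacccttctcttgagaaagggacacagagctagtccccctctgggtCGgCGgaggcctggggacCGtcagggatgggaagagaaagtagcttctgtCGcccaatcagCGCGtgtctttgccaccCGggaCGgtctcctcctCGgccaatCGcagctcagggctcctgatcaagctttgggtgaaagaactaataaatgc
Pax4 promoter: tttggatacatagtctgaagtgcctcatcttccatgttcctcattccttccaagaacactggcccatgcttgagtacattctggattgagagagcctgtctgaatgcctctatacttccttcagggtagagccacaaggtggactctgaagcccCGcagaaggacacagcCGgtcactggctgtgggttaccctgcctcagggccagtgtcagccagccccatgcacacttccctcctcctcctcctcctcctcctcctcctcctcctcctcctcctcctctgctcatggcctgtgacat
The Brg1-FLAG stretches are the central 300 bp of the region on the plus strand, chr1:78137463-78137762 in intron 4 of *Pax3* and chr4:139310026-139310325 in intron 7 of *Pax7*. Capitals mark the E-box variant CAGGTG on either strand, a motif added to the search after the *Pax3* sequence had been read.
Pax3 intronic Brg1-FLAG region: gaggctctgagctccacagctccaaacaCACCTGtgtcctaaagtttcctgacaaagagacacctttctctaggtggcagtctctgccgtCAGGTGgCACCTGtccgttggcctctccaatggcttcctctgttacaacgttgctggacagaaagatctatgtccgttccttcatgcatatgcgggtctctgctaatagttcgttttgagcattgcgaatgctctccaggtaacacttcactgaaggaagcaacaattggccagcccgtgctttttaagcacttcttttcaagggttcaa
Pax7 intronic Brg1-FLAG region: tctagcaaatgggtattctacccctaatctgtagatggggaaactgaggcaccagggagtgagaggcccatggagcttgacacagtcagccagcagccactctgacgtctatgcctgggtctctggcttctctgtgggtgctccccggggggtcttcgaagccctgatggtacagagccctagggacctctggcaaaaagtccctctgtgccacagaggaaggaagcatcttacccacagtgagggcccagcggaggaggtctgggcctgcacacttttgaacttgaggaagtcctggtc
The *Pax3* stretch holds 3 matches and the *Pax7* stretch none, and 17.7% of the 2390 regions listed in at least 2 Brg1-FLAG libraries hold the letters in their central 300 bp. The other motifs searched, on both strands, were a T-box site spelled AGGTGTGA, the site of GATA factors spelled AGATAAG, that of forkhead (Fox) factors spelled TGTTTAC, the E-box of myogenic factors spelled CAGCTG, the site of Tcf factors spelled CTTTGAT, the octamer of POU factors spelled ATGCAAAT, and the palindromic site of paired homeodomain dimers. None of them occurs in either stretch.

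The lists give only the start and end of each enriched region, so a gene's value is the number of bases covered by regions in a window: the 10 kb centred on the TSS, the gene body, or the gene with 50 kb on each side. Read depth is unknown. The total covered length, which stands in for it, was 8.38 to 11.0 Mb in control and 4.74 to 8.99 Mb in 4-OHT H3K27me3 libraries, 3.68 to 4.07 and 3.58 to 4.77 Mb for Suz12, and 28.0 to 30.8 and 26.1 to 28.5 Mb for H3K27ac. H3K27me3 replicate 1 stood apart in both conditions, with regions no wider than 9300 bp (control) and 7550 bp (4-OHT) against widest regions of 33350 to 94725 bp in the other libraries, and Brg1-FLAG replicate 3 listed 192 regions against 8021 and 8257. In both control libraries H3K27ac lay at the TSS window of 7 of 8 mesoderm and primitive streak markers (all but *Kdr*), of 3 of 4 pluripotency markers, of 1 of 3 definitive endoderm markers and of 0 of the 4 neural ectoderm markers found in the annotation, *Pax6* among them. The share of all genes was 47.8%. Markers differed between the conditions. H3K27ac was lower in both same-numbered pairs at the 7 mesoderm markers that had it, compared with 1887 of 11985 genes with the mark. At 3 of these markers the groups did not overlap, compared with 12.5% of genes that were lower in this sense. *Cxcr4* went from 1444 and 3319 bp of H3K27ac to 0 in both libraries. The pluripotency markers went both ways in H3K27ac, with 1 of 4 lower and 1 higher with no overlap, compared with 12.5% and 39.8% of genes. *Nanog* went from 4069 and 4344 bp to 3219 and 3619 bp of H3K27ac, and *Sox2* from 3150 and 1850 bp to 4576 and 4701 bp. H3K27me3 at *Sox2* went from 2875, 5800 and 3250 bp to 575, 2001 and 425 bp. The part of these differences in the *Pax* values was not tested. A region list cannot show the loss of *Brg1* (*Smarca4*) itself: H3K27ac at its TSS window covered 2875 and 2450 bp in the control libraries and 3250 and 3375 bp after 4-OHT.

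In control cultures Polycomb covered 8 of the 9 *Pax* promoters. H3K27me3 was listed in at least 2 control libraries at all 9 TSS windows, compared with 14.2% of all protein-coding genes, and Suz12 at 8 of 9, compared with 6.04%. The exception was *Pax4*, which had no Suz12 in any library and whose H3K27me3 consisted of 125 bp in control replicate 1 and 150 bp at another position in control replicate 3. H3K27ac was listed in both control libraries at 1 of 9 windows, again *Pax4*, compared with 47.8% of all genes, and Brg1-FLAG in at least 2 libraries at 0 of 9, compared with 3.99%. After 4-OHT the counts were 8 of 9 for H3K27me3 (12.1% of all genes), 8 of 9 for Suz12 (7.91%) and 0 of 9 for H3K27ac (48.3%). In gene bodies H3K27me3 and Suz12 were each listed at 8 of 9 genes in both conditions (H3K27me3 13.2% of all genes in control and 11.1% after 4-OHT, Suz12 6.04% and 7.91%), and H3K27ac at 1 of 9 in control (49.4%) and 2 of 9 after 4-OHT (49.1%). With 50 kb on each side both Polycomb marks were listed at 9 of 9 (H3K27me3 33.3% and 28.4%, Suz12 14.9% and 18.7%), and H3K27ac at 5 of 9 in control (74.9%) and 4 of 9 after 4-OHT (73.8%).

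*Pax3*, a regulator of muscle progenitors and neural crest, had the most Polycomb coverage of the family at the TSS window, whereas in the gene body *Pax6* had more of both marks. The *Pax3* TSS window had 6600, 10000 and 10000 bp of H3K27me3 in control replicates 1, 2 and 3 and 9750 and 10000 bp of Suz12, so that in all but H3K27me3 replicate 1 the window was all but filled. Among 22225 genes the *Pax3* mean ranked 24th for H3K27me3 (8867 ± 1963 bp, SD, n = 3) and 13th for Suz12 (9875 ± 177 bp, n = 2). When regions less than 1 kb apart were joined into domains, a single H3K27me3 domain ran over the TSS for 36025 bp in replicate 2 and 36350 bp in replicate 3, whereas in replicate 1 the domain with the most bases in the window, 19150 bp long, ended just short of the TSS. Its paralogue *Pax7*, which marks muscle satellite cells, had 2925, 8506 and 8375 bp of H3K27me3 and 5731 and 5781 bp of Suz12. The joined Suz12 domains of *Pax7*, 14275 and 15425 bp, were close to those of *Pax3*, 15725 and 17425 bp, but lay mostly within the gene.

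*Pax9* and *Pax1*, both needed for the vertebral column, also lay in wide domains. *Pax9* had 7447, 9375 and 9350 bp of H3K27me3 and 8953 and 9775 bp of Suz12, ranking 31st and 33rd of all genes. *Pax1* had less in every library of the same number, with 6510, 8935 and 8860 bp of H3K27me3 and 5085 and 5235 bp of Suz12. The control ranges of these genes overlapped for H3K27me3 and did not overlap for Suz12. The joined *Pax9* H3K27me3 domain ran over the TSS in all 3 control libraries, for 18100, 26875 and 27775 bp.

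*Pax2*, *Pax5* and *Pax8* differed more among themselves. *Pax2*, required for kidney and optic nerve, had 3500, 8825 and 8825 bp of H3K27me3 and 8075 and 9075 bp of Suz12. *Pax5*, the B cell commitment factor, had a like H3K27me3 coverage (6183, 8375 and 8475 bp) with less Suz12 (4275 and 4550 bp). *Pax8*, a thyroid and kidney regulator, had the least of the Polycomb-covered genes, with 1625, 4850 and 4575 bp of H3K27me3 and 1075 and 1450 bp of Suz12. For both marks *Pax8* lay below every other covered member in every library of the same number. Its Suz12 regions did not reach the TSS, and lay within the first few kilobases of the gene.

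*Pax6* and *Pax4* were opposites. *Pax6*, the eye and forebrain regulator, had 5923, 10000 and 10000 bp of H3K27me3 and 7477 and 7627 bp of Suz12 at the TSS window. Its joined Suz12 domain extended 24550 and 25775 bp and was the widest of the family in both control libraries. *Pax4*, which acts in endocrine pancreas, was the only member without a Suz12 region in the TSS window or the gene body.

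**Figure D1:**
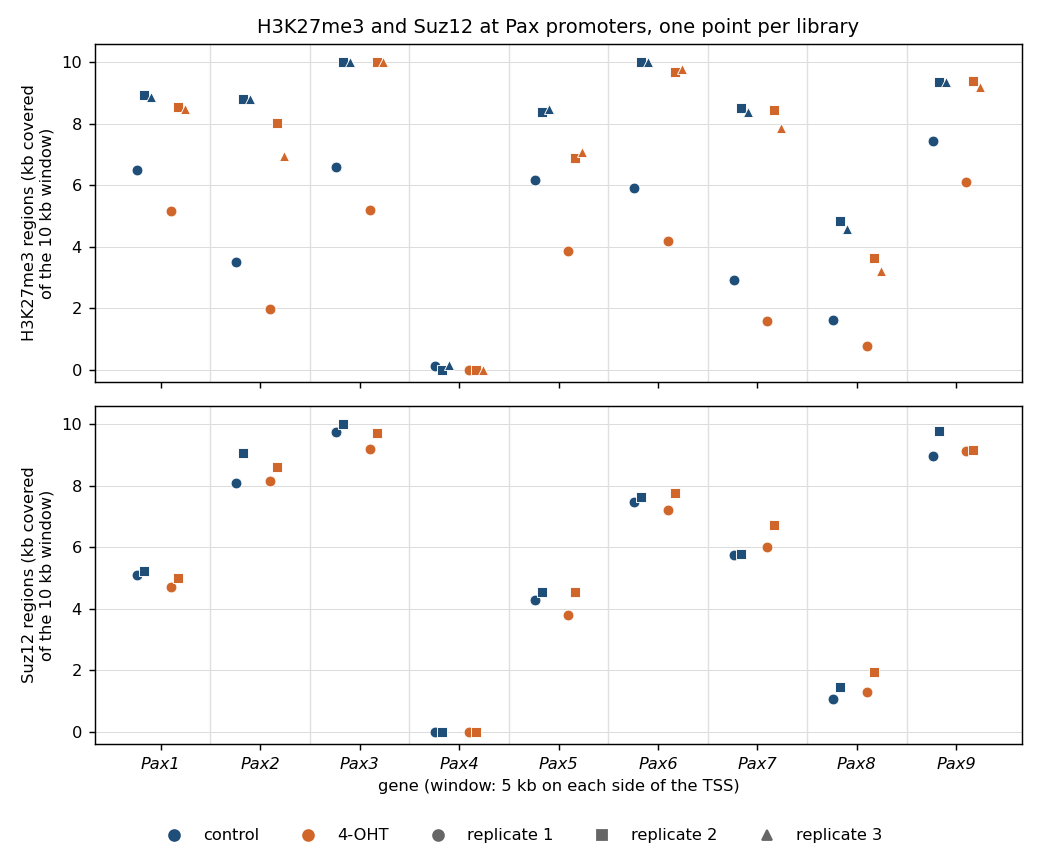
Covered length of H3K27me3 (top) and Suz12 (bottom) regions, in kb of the 10 kb window centred on the TSS (y axis), for each *Pax* gene (x axis); each point is 1 library, blue for control and orange for 4-OHT, with a shape for each replicate number. Replicate 1 (circles) lies below the other H3K27me3 libraries for every gene but *Pax4*, and *Pax4* lies at or near 0. Control and 4-OHT points of the same shape differ by up to 2325 bp (H3K27me3 replicate 1 at *Pax5*).

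The bases covered by Suz12 were largely those covered by H3K27me3. Among bases listed in at least 2 control libraries of each, all Suz12 bases in the TSS windows of *Pax1*, *Pax3*, *Pax5*, *Pax6* and *Pax8* were also H3K27me3 bases, and the share was 93.0% for *Pax9*, 87.9% for *Pax2* and 86.1% for *Pax7*. H3K27me3 spread beyond Suz12 to different extents. Suz12 took up 97.5% of the H3K27me3 bases of *Pax3* and 88.8% of those of *Pax9*, but 47.8% of those of *Pax5* and 23.5% of those of *Pax8*.

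Suz12 coverage followed the number of CpG dinucleotides around the TSS. *Pax4* had 126 CpGs in the 10 kb window and *Pax8* 163, whereas the other 7 genes had 246 (*Pax5*) to 406 (*Pax2*); the median of all protein-coding genes was 150. In the central 1 kb *Pax4* had 3 CpGs and *Pax8* 18, compared with 41 to 71 in the others and a median of 41 over all genes. Across the 9 genes Spearman's rho between the CpG number in the window and the mean control coverage was 0.92 for Suz12 and 0.58 for H3K27me3. The 9 points share their libraries and are related genes, and the values are a description.

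**Figure D2:**
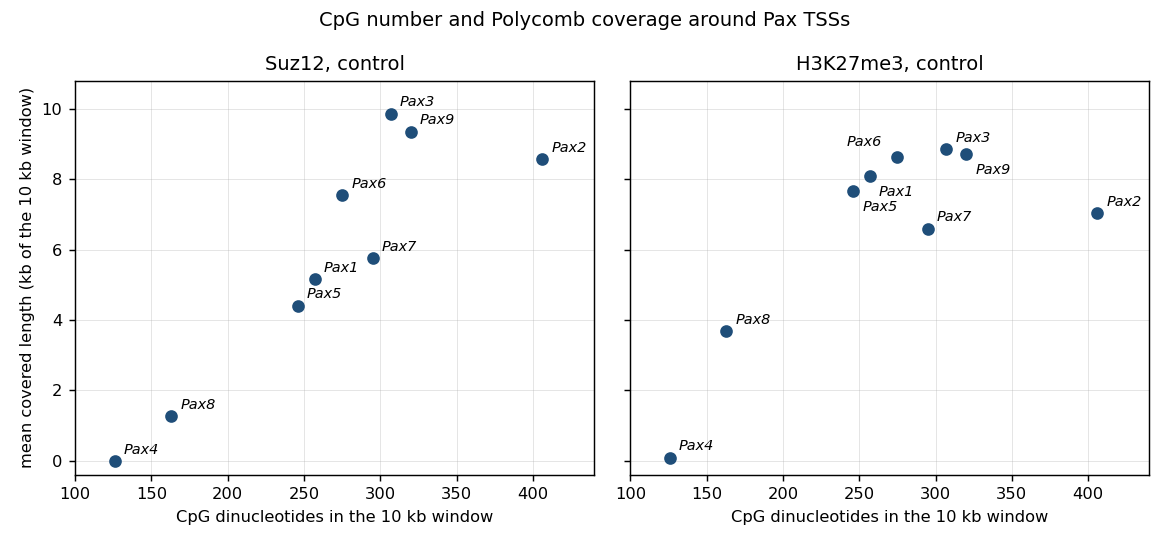
Number of CpG dinucleotides in the 10 kb window centred on the TSS (x axis) against the mean covered length in control, in kb of the same window (y axis), for Suz12 (left, n = 2) and H3K27me3 (right, n = 3); each point is 1 *Pax* gene. *Pax4* and *Pax8*, with 126 and 163 CpGs, are lowest in both panels, and *Pax2*, with 406 CpGs, is not the highest.

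After *Brg1* deletion H3K27me3 was still listed at 8 of the 9 *Pax* promoters, all but *Pax4*, with covered lengths that were lower in most same-numbered pairs of libraries and not clear of the spread between replicates. At the TSS window 0 of 9 genes had 4-OHT replicates that did not overlap the control replicates, compared with 11.9% of the 4182 genes with the mark that were lower and 0.191% that were higher in this sense, and with 4.58% lower among genes with a control mean of at least 5000 bp, as 7 of the 9 had. The exact permutation p was 0.3 (*Pax5*) to 1 (*Pax3*), where 3 against 3 allows no less than 0.1. Same-numbered control and 4-OHT libraries deviated together, and the numbers were taken to pair these libraries. Within pairs 6 of 9 genes (*Pax1*, *Pax2*, *Pax5*, *Pax6*, *Pax7* and *Pax8*) were lower in all 3 pairs, compared with 44% of all genes with the mark. Among the 349 genes that had a control mean of at least 5000 bp the share was 78.2%.

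The differences were widest at the *Pax2*, *Pax5* and *Pax8* promoters. *Pax8* went from 1625, 4850 and 4575 bp to 775, 3650 and 3200 bp (log2 ratio of means −0.53, 25 bp added), *Pax5* from 6183, 8375 and 8475 bp to 3858, 6875 and 7092 bp (−0.37), and *Pax2* from 3500, 8825 and 8825 bp to 1975, 8013 and 6950 bp (−0.32). Every pair was lower for these genes, while the groups overlapped because replicate 1 of the control was low. Limma with the replicate number as a block gave an adjusted p of 0.264 for *Pax5*, 0.273 for *Pax8* and 0.288 for *Pax2* over the 4182 genes, of which 0 passed an adjusted p of 0.05 and 687 had an unadjusted p under 0.05.

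The other covered promoters differed less. *Pax6* had 4198, 9700 and 9775 bp after 4-OHT, *Pax1* 5160, 8535 and 8485 bp, and *Pax7* 1600, 8456 and 7875 bp, each lower than its control in every pair, by 225 to 1725 bp for *Pax6*, by 375 to 1350 bp for *Pax1* and by 50 to 1325 bp for *Pax7*. *Pax3* had 5200, 10000 and 10000 bp, so that replicates 2 and 3 filled the window in both conditions and it could show no change there. *Pax9* had 6097, 9400 and 9200 bp, with 1 pair higher by 25 bp. *Pax4* was at 0 in all 3 4-OHT libraries. The median log2 ratio over the 9 genes was −0.14, compared with −0.62 over all genes with the mark and −0.18 over those with a control mean of at least 5000 bp.

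The direction of these differences depended on how libraries were put on one scale. The 4-OHT libraries covered less of the genome in every pair, and when all H3K27me3 libraries were scaled to the same covered length the log2 ratio was above 0 for 7 of 9 *Pax* genes, all but *Pax4* and *Pax8*, with a median of 0.24, compared with −0.24 over all genes with the mark and 0.31 over those with a control mean of at least 5000 bp. On that scale *Pax1*, *Pax3* and *Pax9* were higher after 4-OHT with no overlap between groups, compared with 4.93% of genes. Scaling multiplies all genes of a library by 1 factor, and for *Pax3*, which filled the window in replicates 2 and 3 of both conditions, the scaled difference in those replicates is that of the factors alone (0.769 and 0.844 in control, 0.941 and 1.11 after 4-OHT). *Pax9* was also near the ceiling of the window. Depth, ChIP efficiency and a real fall in the mark cannot be told apart from the lists, nor, in bulk cultures, can fewer cells with the mark and less of it per cell. Leaving out replicate 1 of both conditions, an alternative added after seeing the data, *Pax1*, *Pax2*, *Pax5*, *Pax6* and *Pax8* were lower with no overlap in the lengths as listed, 5 of 9, compared with 43.4% of all genes.

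**Figure D3:**
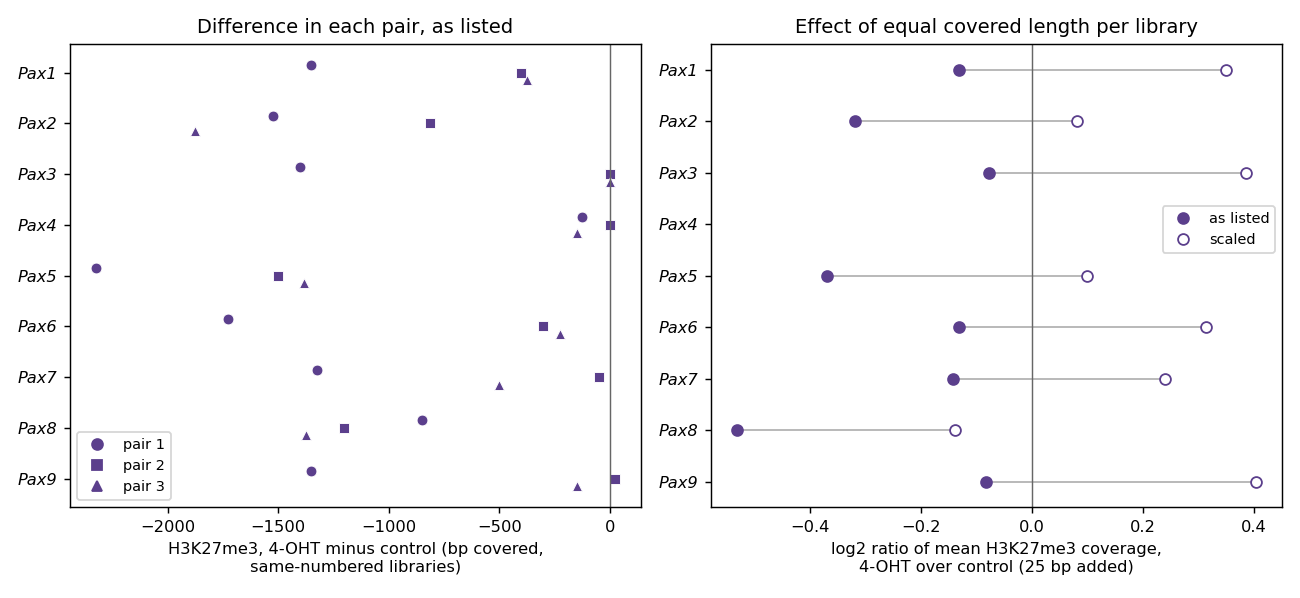
Left, the difference in H3K27me3 covered length at the TSS window (x axis, bp, 4-OHT minus control) in each same-numbered pair of libraries (shapes) for each *Pax* gene (y axis); right, the log2 ratio of mean coverage as listed (filled) and after scaling each library to the same covered length (open), without *Pax4*. The pair differences lie at or below 0 except 1 pair of *Pax9* at 25 bp, and the open points lie above 0 for all but *Pax8*.

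Wider windows gave a like picture. In gene bodies *Pax5* was the single gene without overlap between groups, at 11670 ± 218 bp in the control libraries and 8112 ± 2111 bp after 4-OHT (SD, n = 3 each, exact permutation p = 0.1, the smallest possible), compared with 10.7% of all genes (0 of 9 were higher, against 0.212%), and 6 of 9 genes were lower in every pair, compared with 40.2%. Scaled to equal covered length *Pax5* was no longer apart. With 50 kb on each side, 8 of 9 genes were lower in every pair, all but *Pax4*, compared with 50.6%. In that window 0 of 9 lacked overlap in either direction, compared with 15.9% lower and 0.146% higher. For gene bodies and the 50 kb window the share among genes with high control coverage was not counted. In the *Dlx* family 5 of 6 genes were lower in every pair in gene bodies and 6 of 6 in the 50 kb window. In the family of *Six4* these counts were 2 of 4 and 6 of 6. The 50 kb count was thus not particular to *Pax* genes. *Pax2* differed most in the 50 kb window, from 34400 ± 6582 bp to 23158 ± 10101 bp (log2 ratio −0.57), lower by 15675, 9650 and 8400 bp in the 3 pairs. With regions joined as above, a domain of 33150 bp in control replicate 2 and 25450 bp in replicate 3 ran over the *Pax2* TSS. After 4-OHT the domains with the most bases in the TSS window were 1050, 16500 and 7150 bp in replicates 1, 2 and 3 and did not cross the TSS, nor did that of control replicate 1 (3600 bp). These lengths depend on the joining distance. In replicate 2 the region at the TSS ended at 0.086 kb in control and at −0.014 kb after 4-OHT. The next region began at 1.012 and 1.137 kb, so that only the control gap was joined. In replicate 3 control had a region from −1.088 to 0.186 kb. After 4-OHT that replicate had none between −1.414 and 1.062 kb.

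Suz12 at the *Pax* promoters differed little in length. Its mean covered length after 4-OHT was 93.9% (*Pax1*) to 111% (*Pax7*) of control at all covered promoters but *Pax8* (129%). Of the 8 genes with Suz12 at the TSS window, *Pax1* (5085 and 5235 bp to 4710 and 4985 bp) and *Pax3* (9750 and 10000 bp to 9200 and 9725 bp) were lower with no overlap, compared with 5.9% of the 2273 genes with Suz12 and 33% of the 191 with a control mean of at least 5000 bp. *Pax7* was higher, from 5731 and 5781 bp to 6006 and 6731 bp, compared with 32% of genes and 3.14% of those with a control mean of at least 5000 bp. With 2 against 2 the exact permutation p was 0.33 for each, the smallest possible. After scaling to equal covered length none of the 3 remained apart, and *Pax5* (lower) and *Pax8* (higher) were apart instead. The median log2 ratio over the 8 genes was −0.03, compared with 0.49 over all genes with Suz12 and −0.09 over those with a control mean of at least 5000 bp. *Pax8*, with the least Suz12, went from 1075 and 1450 bp to 1300 and 1950 bp, higher in both pairs with overlapping groups. In gene bodies 0 of 8 genes were lower with no overlap (5.6% of all genes with Suz12) and 1, *Pax7*, was higher (30.7%), and with 50 kb on each side 0 of 9 were lower (5.49%) and again *Pax7* was higher (30.5%), from 13875 ± 106 bp to 14788 ± 619 bp (SD, n = 2 each).

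H3K27ac was absent from the TSS windows of all *Pax* genes but *Pax4*. *Pax1*, *Pax6* and *Pax9* had no H3K27ac region within 50 kb in any of the 4 libraries. Around the other 6 genes 26 merged regions were listed, of which 11 were in both control libraries and 8 in both 4-OHT libraries. The region 45.0 kb upstream of *Pax5*, 4 of 6 at *Pax4* and 3 of 5 at *Pax8* lay within 2.5 kb of the TSS of a neighbouring gene (*Zcchc7*, *Arf5*, *Gcc1*, *Snd1* or *Psd4*). The most regions, 8, were in *Pax7*.

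Within intron 7 of *Pax7* a cluster of H3K27ac regions was listed in both control libraries and, but for 200 bp in replicate 2, in neither 4-OHT library. The region at chr4:139309326-139311000, 79.3 kb into the gene, covered 1175 and 1375 bp in the control libraries and 0 and 200 bp after 4-OHT. The region at chr4:139313101-139313500 covered 300 and 400 bp, and that at chr4:139314001-139314700 covered 425 and 700 bp, and neither was listed in a 4-OHT library. Brg1-FLAG replicates 1 and 2 both listed a region inside the first (chr4:139310001-139310350, 100 and 350 bp, the *Pax7* sequence shown above) and another overlapping the last (chr4:139314426-139314725, 125 and 200 bp). In intron 4 of the same gene, at chr4:139360776-139361750, H3K27ac covered 0 and 25 bp in the control libraries and 975 and 175 bp after 4-OHT, with no Brg1-FLAG region. Over the whole *Pax7* body H3K27ac went from 2150 and 2875 bp to 1175 and 375 bp (log2 ratio −1.67). The groups did not overlap, compared with 18.3% of the 12432 genes with H3K27ac in the body that were lower, and the exact permutation p was 0.33, the smallest possible. The cluster lay well outside the Polycomb domain of the promoter.

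**Figure D4:**
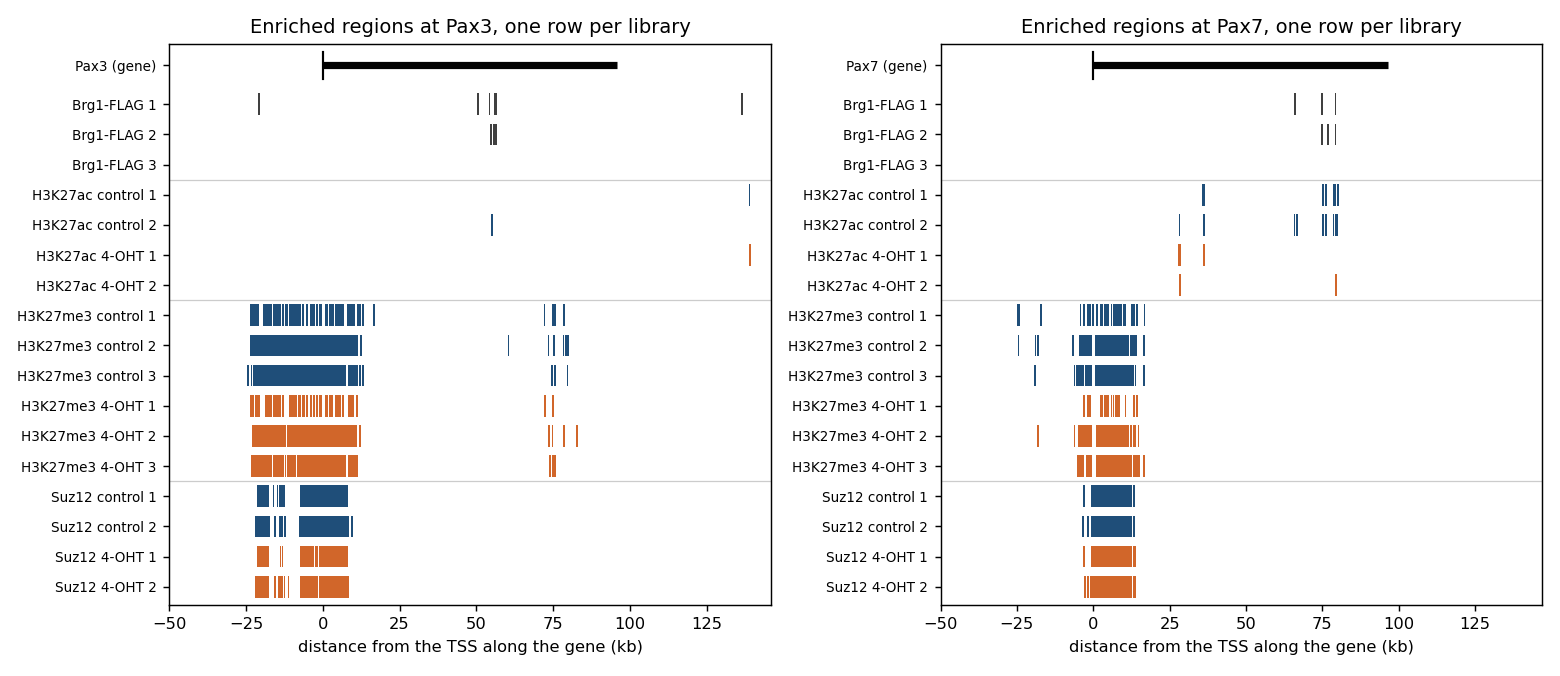
Enriched regions at *Pax3* (left) and *Pax7* (right) in each library (rows; grey Brg1-FLAG, blue control, orange 4-OHT), with the distance from the TSS along the gene in kb on the x axis; the black bar is the gene, and regions too narrow to see are drawn at a minimum width. H3K27me3 and Suz12 cover the promoter end of both genes in every library, and in *Pax7* the H3K27ac regions 75.1 to 79.3 kb from the TSS are present in both control rows and, but for 1 remnant, absent from the 4-OHT rows.

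At *Pax4* an H3K27ac region upstream of the TSS was shorter or missing after 4-OHT. It lay at chr6:28400701-28401425, 1.7 kb upstream of the TSS and outside any annotated protein-coding gene, and covered 675 and 725 bp in the control libraries and 0 and 175 bp after 4-OHT. A neighbouring region at chr6:28401701-28402000 was listed in control replicate 2 only, at 300 bp. In the TSS window as a whole *Pax4* went from 675 and 1025 bp to 0 and 175 bp (log2 ratio −2.96), lower with no overlap, compared with 12.5% of the 11985 genes with H3K27ac (39.8% were higher). Limma gave an adjusted p of 0.244, or 0.177 with the replicate block, and called 0 of these genes, with 2351 and 2857 at an unadjusted p under 0.05. No Brg1-FLAG library listed a region there.

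*Pax2* had a short region in the 4-OHT libraries alone. At chr19:44910751-44911050, in the last exon outside the coding sequence (the 3′ untranslated region), H3K27ac was not listed in control and covered 275 and 250 bp after 4-OHT, so that the *Pax2* body was higher with no overlap, compared with 33.3% of genes. With 50 kb on each side 1 gene, *Pax7*, was lower (21.9% of genes) and 1, *Pax2*, higher (38.8%), both with no overlap. A region 29.7 kb upstream covered 525 and 450 bp in the control libraries and 600 bp in both 4-OHT libraries. *Pax3* had no H3K27ac region shared by both libraries of either condition.

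**Figure D5:**
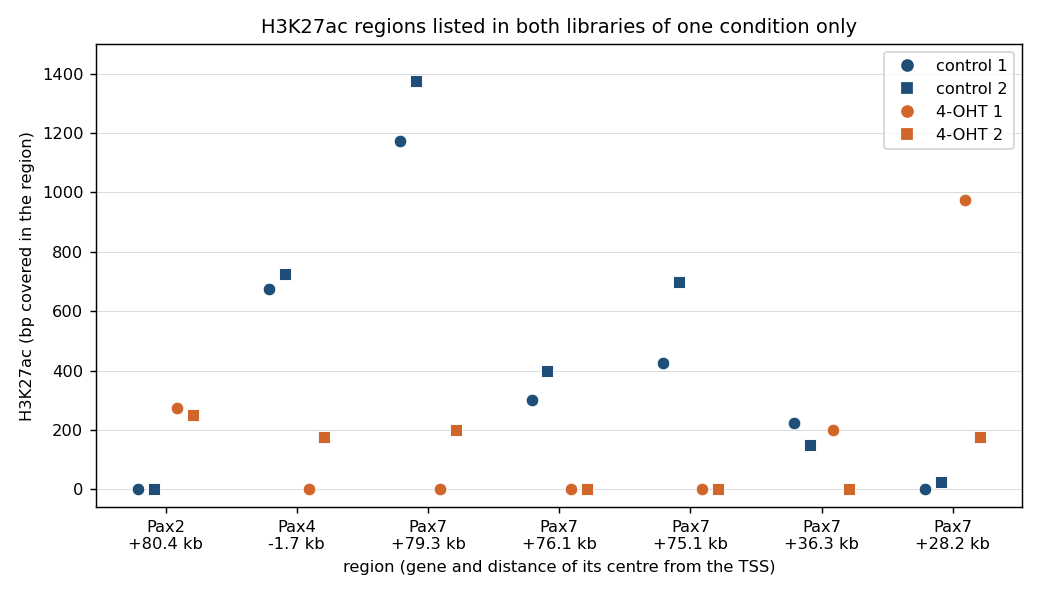
H3K27ac covered length in bp (y axis) for the 7 regions near *Pax* genes listed in both libraries of one condition but not in both of the other (x axis, with the distance of the centre from the TSS); each point is 1 library. The regions were chosen for this difference; 5 were listed in both control libraries (*Pax4* and *Pax7*) and 2 in both 4-OHT libraries (*Pax2* and *Pax7*).

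Brg1-FLAG regions near *Pax* genes lay in introns and flanks. At the TSS window 0 of 9 genes had regions in at least 2 libraries, at one place or not, compared with 3.99% of all genes. Regions that Brg1-FLAG replicates 1 and 2 both listed at one place lay in the bodies of *Pax3* and *Pax7* and downstream of *Pax2*. Counted as for the TSS window, 2 of 9 gene bodies had Brg1-FLAG, compared with 5.86% of all genes. That share is not matched for gene length, and the bodies of *Pax3* and *Pax7* are 95.9 and 96.5 kb long. The *Pax3* region, chr1:78136876-78138350 in intron 4, 56.1 kb from the TSS, was the widest, with 1100 and 1450 bp. It overlapped no H3K27ac or H3K27me3 region of a control library; control replicate 2 listed 150 bp of H3K27ac at chr1:78138576-78138725, just beside it, and the other 3 H3K27ac libraries none. Over its whole length it held the 3 CAGGTG matches and 1 GATA match, and none of the other motifs. The *Pax2* region, chr19:44956876-44957225, covered 125 and 325 bp. Within 50 kb of the gene 4 of 9 genes had regions in at least 2 Brg1-FLAG libraries, compared with 22.8%, but those at *Pax8* were 25 bp each and at different places. For *Pax1*, *Pax4*, *Pax5*, *Pax6*, *Pax8* and *Pax9* the nearest region shared by 2 Brg1-FLAG libraries was 378 (*Pax9*) to 1258 kb (*Pax4*) from the TSS. Replicate 3 listed none near a *Pax* gene, and without replicate 1 or without replicate 2 no gene had Brg1-FLAG in 2 libraries.

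The genes whose covered lengths at the TSS window were nearest to those of a *Pax* gene, by Euclidean distance over the 17 libraries, were mostly other developmental regulators. For *Pax3* they were *Hoxc9* and *Hoxd11* (988 and 1003 bp), for *Pax6* *Foxb2* and *Evx2* (802 and 1304 bp), for *Pax5* *Bsx* and *Lhx6* (1174 and 1626 bp) and for *Pax2* *Tbx2* and *Lhx5* (1627 and 2172 bp). Those of *Pax1* were *Slc6a5* and *Fev*, those of *Pax7* *Rfx4* and *Dio3*, and those of *Pax8* *Sorcs3* and *Smarcd3*. *Pax4* was nearest to *Hcrt* and *Kcnh4* (263 bp each). Within the family *Pax3* and *Pax9* were the closest pair (2080 bp) and *Pax3* and *Pax4* the farthest (29014 bp).

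Genes of the same networks gave a mixed picture. Among partners that act with Pax factors in kidney, ear and muscle, *Eya1* was lower in H3K27ac at the TSS window after 4-OHT with no overlap between groups (925 and 1050 bp to 625 and 600 bp), as was *Six4* (4100 and 3950 bp to 3700 and 3800 bp). That is 2 of 4 partners tested, compared with 12.5% of all genes, and 0 were higher, compared with 39.8%. Of 25 genes known to act downstream of or together with Pax factors, 19 had H3K27me3 and 17 Suz12 in control (14.2% and 6.04% of all genes), and 15 of the 20 tested were lower in H3K27me3 in every pair, compared with 44% of all genes and 78.2% of those with a control mean of at least 5000 bp. *Tshr*, the thyrotropin receptor of the thyroid, was the one without overlap between groups. That is 1 of 20 tested, compared with 11.9% lower in this sense among all genes with the mark. Its H3K27me3 covered 1875, 1000 and 1125 bp in the control libraries and 125, 375 and 0 bp after 4-OHT. For H3K27ac *Myf5*, a myogenic regulator, was lower (1350 and 1350 bp to 550 and 275 bp), as was *Blnk*, and *Tshr* and *Foxe1* were higher, none of these groups overlapping, so that 2 of 8 tested were lower and 2 higher, compared with 12.5% and 39.8% of all genes. For Suz12 *Nkx2-1*, *Neurog2*, *Neurog3*, *Nkx2-2* and *Uncx* were lower and *Myod1* and *Ret* higher with no overlap, 5 and 2 of 18 tested, compared with 5.9% and 32% of all genes and 33% lower among those with a control mean of at least 5000 bp. Among the partners *Dach1* was higher in Suz12 with no overlap, 1 of 4 tested, compared with 32% of all genes, and 0 were lower. The partners and the genes named for H3K27ac and Suz12 were chosen after their values were seen, and the lists were not tested as sets.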

How the data were processed

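ChIP-seq was made in day 4 mesodermal cultures. The submitters' processing notes name Bowtie and the mm9 build; versions are not given in the sources used here. Per the labels, the authors called regions over input with a Poissonian model in each replicate, and deposited BED lists (chromosome, start and end, edges on a 25 bp grid) without scores, at thresholds of 1e-06 and 2-fold over input for FLAG and 1e-12 for the other antibodies, read here as p-values. No listed region ended beyond its chromosome in the mm9 reference sequence. The outermost protein-coding TSS per gene of the GENCODE mm9 annotation was used. Replicates are biological, per the labels, which name 1 ESC line for all. The study's methods give a separate FLAG-tagged line, and FLAG in duplicate where the labels hold 3 libraries.

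A gene had a mark when at least 2 libraries of a group listed a region (1 bp). Regions of different libraries sharing 1 bp were merged. Groups were compared by covered bp: a call means that replicates do not overlap, a p is a two-sided exact permutation p, and ratios are log2 of mean bp + 25. The background is every protein-coding gene with the mark in at least 1 library. The numbers were taken to pair the H3K27me3 libraries, as judged from the lists: deviations of same-numbered libraries correlated at 0.546, 0.404 and 0.343 over 4182 genes. Those of unlike number correlated at −0.422 to 0.215. For Suz12 and H3K27ac, with 2 libraries per group, whether the numbers pair libraries was not settled. Limma 3.58.1 (R 4.3.3) with Benjamini-Hochberg adjustment was run on log2(bp + 25) as an alternative. Coverage and limma were tested on simulated data. The 9 genes, the related lists and the markers were chosen with earlier results of these data known. All *Pax* genes are named; of the related lists, those without overlap for H3K27me3, and others as stated. Inputs were not analysed here. Values of some related genes are not reported here. Python 3.11.15, NumPy 2.4.6 and SciPy 1.17.1 were used.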

Additional observations from a re-analysis of the deposited data

How the results depend on the processing

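Counts of *Pax* genes with a mark at the TSS window were stable for H3K27me3 (8 or 9 of 9) and Suz12 (8 of 9) under all alternatives run. No *Pax* gene apart in the lengths as listed, with all libraries, was apart the other way after scaling. Leaving a library out cannot reverse such a call. Between alternatives directions did reverse for H3K27me3: *Pax1* at the TSS window and *Pax3*, *Pax6* and *Pax9* in the 50 kb window were lower without replicate 1 of both conditions and higher after scaling. The calls between conditions were not stable, and the causes were not tested. Counts below are of genes with no overlap between groups, in the order TSS window, gene body and 50 kb window. With the replicate block, H3K27me3 was lower in every pair at 6, 6 and 8 genes, against 0, 1 and 0. The shares of all genes with the mark were 44%, 40.2% and 50.6%. Among genes with a control mean of at least 5000 bp the share was 78.2% at the TSS window. It was not counted for the wider windows. Suz12 was lower in both pairs at 3 in gene bodies (248 of 2304 genes with Suz12) and 3 in the 50 kb windows (670 of 5334), against 0. Suz12 was higher in both pairs at 2, 3 and 3, against 1, compared with 901 of 2273, 871 of 2304 and 2056 of 5334 genes. The block moved no H3K27ac count. For Suz12 and H3K27ac, with 2 libraries per group, whether the numbers pair libraries was not settled. Same-numbered deviations correlated at 0.0333 and 0.252, and those of unlike number at −0.0333 and −0.252. Without replicate 1 of both conditions, H3K27me3 was lower at 5, 5 and 6, compared with 43.4%, 40.5% and 50.3% of all genes with the mark. Scaled to equal covered length, H3K27me3 was higher at 3, 2 and 4, against 0, compared with 4.93%, 4.37% and 3.34% of all genes. It was lower at 0 in gene bodies (5.85%). Suz12 was lower at 1, 3 and 4, against 2, 0 and 0, compared with 13.3%, 11.5% and 14% of all genes. H3K27ac in the 50 kb windows was lower at 2 (18.7%) and higher at 2 (48.4%), against 1 each. With regions joined within 1 kb, Suz12 was lower at 0 promoters and 1 gene body and higher at 2 gene bodies, and H3K27me3 was lower at 1 in the 50 kb windows. With all annotated TSSs, or with 10 kb on each side, Suz12 was lower at 1. Shares of all genes were not counted for joined regions or other TSS windows. Limma called 0 genes for any mark (unadjusted p under 0.05 without the block: 217 for H3K27me3, 342 for Suz12 and 2351 for H3K27ac), and no *Pax* gene.

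Leaving out each library in turn gave ranges of 0 to 5, 1 to 5 and 0 to 6 for H3K27me3 lower (5, 5 and 6 without control replicate 1; 1 at promoters without control replicate 2; 2 in gene bodies and 2 in the 50 kb windows without 4-OHT replicate 2), and 0 for H3K27me3 higher. Leaving a library out can keep or add calls of no overlap but cannot remove them, so that these counts can only rise. Shares of all genes were not counted for single libraries left out. For Suz12 and H3K27ac, leaving out 1 library sets 1 against 2, and 1 condition then rests on a single library. Counts of such calls are not given. Presence of H3K27ac after 4-OHT at promoters ranged from 0 to 1 (1 in any 1 library, *Pax4*), in gene bodies in control from 1 to 3 (3 in any 1 library), and in gene bodies after 4-OHT it was 0 at a minimum of 500 bp. Brg1-FLAG in 2 libraries, at 2 gene bodies and 4 of the 50 kb windows, ranged from 0 to 2 and 0 to 4 (0 without replicate 1 or 2), and was at 1 and 1 with at least 500 bp, 4 and 7 in any 1 library, and 0 in every library. With no reads or scores in the lists, regions just above and just below the threshold cannot be told from strong and absent ones.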
